A study of Mus musculus with 6 samples.

Results

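Genes of histones and of the enzymes and reader proteins that act on them were compared between livers of mice lacking Atp7b and livers of wild-type mice. Members were all probe sets with 1 platform gene symbol that begins with H1f, H2a, H2b, H3, H4, Macroh2a, Kdm, Kmt, Hdac, Sirt or Setd, or with Kat or Brd and a digit. The rule found 67 probe sets for 51 genes, out of 10776 probe sets for 7163 genes with 1 symbol. By class they were 1 linker histone gene, 4 core histone genes, 5 histone variant genes, 5 Kat acetyltransferases, 11 Kmt and Setd methyltransferases, 10 Kdm demethylases, 7 Hdac deacetylases, 3 sirtuins and 5 Brd bromodomain genes.

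The study profiled total liver RNA on 6 Affymetrix arrays, 1 per sample. The 3 knockout samples, labelled KO903, KO904 and KO905, come from ATP7B KO mice, whose labels refer to a line described in 1999. The 3 control samples, WT4, WT5 and WT6, come from wt mice. Atp7b encodes the copper-exporting ATPase that is mutated in Wilson disease, and the series title places the samples early in copper accumulation. The labels give no strain, sex, age or treatment, and do not state that each sample is a separate animal. The p-values therefore measure the spread between these samples, which may be technical. Liver is a mixed tissue, so fewer cells of a type and less RNA per cell cannot be told apart.

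DNA in the nucleus is wound around octamers of the core histones H2A, H2B, H3 and H4, and a linker histone of the H1 family binds where the DNA enters and leaves the octamer. Acetyltransferases and methyltransferases place chemical groups on histone tails, deacetylases, sirtuins and demethylases remove them, and bromodomain proteins bind acetylated tails. Most core histone genes are expressed during DNA replication and give transcripts that end in a stem-loop in place of a poly(A) tail. Most variant genes are expressed throughout the cell cycle with polyadenylated transcripts. This contrast does not cover the linker histone genes.

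Values are MAS 5.0 signals, the Affymetrix summary of a probe set on a linear scale. Median signals were 330.1 to 342 per array, and the ratio of 3' to 5' signal ran from 1.1 (WT5) to 1.47 (WT6) for actin and from 0.815 (KO903) to 0.99 (WT6) for Gapdh. The probe set of Atp7b read 240.5, 232 and 185 in KO903, KO904 and KO905, against 259, 299.7 and 241 in WT4, WT5 and WT6. Its log2 difference of -0.27 ± 0.16 (SE) did not pass (limma adjusted p = 0.407), and its position against the deleted sequence is not known here, so it does not check the genotype. The hepatocyte markers (6 of 7 listed genes tested, 0 called, 1 at an unadjusted p under 0.05) summed to signals of 93512 to 105949 in the knockout and 98920.3 to 120730 in wild type.

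Of the 67 member probe sets, 58 reached the minimum mean signal of 100 and were tested, covering 45 genes. A probe set was called where its Benjamini-Hochberg adjusted p in limma, computed over all 10620 tested probe sets, was below 0.05. In all, 3 member probe sets were called, all higher in the knockout, namely both probe sets of the linker histone gene H1f2 and the probe set of the demethylase gene Kdm2b. No member was called lower, and 7 further member probe sets had an unadjusted p under 0.05. With the called ones, 10 of the 58 had an unadjusted limma p under 0.05, against 1900 of all 10620 tested. Counts at an unadjusted p under 0.05 given elsewhere stand beside this background. The called share of 5.17% lies near the 4.14% of all tested probe sets that were called (2.05% higher and 2.09% lower). The median log2 difference over the 45 tested member genes was 0.03, as it was over all 6604 tested genes, and 24 of the 45 lay above 0, against 56.4% of all genes. The 3 knockout values and the 3 wild-type values did not overlap for 10 of 58 member probe sets, or 17.2%, against 23.6% of all tested probe sets (13.2% higher and 10.4% lower).

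For most of the family the spread between these samples was small enough to bound the difference. For 54 of the 58 tested member probe sets the 95% interval of the difference lay between a 2-fold fall and a 2-fold rise, and for 41 it lay within 1.5-fold in either direction. Of all 10620 tested probe sets, 10067 lay within 2-fold and 6927 within 1.5-fold, so such bounds are not particular to the members. The exceptions to the 2-fold bound were the 3 called probe sets and the single probe set of H2bc22. All differences are of log2(signal + 16), which understates changes of low signals.

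**Figure D1:**
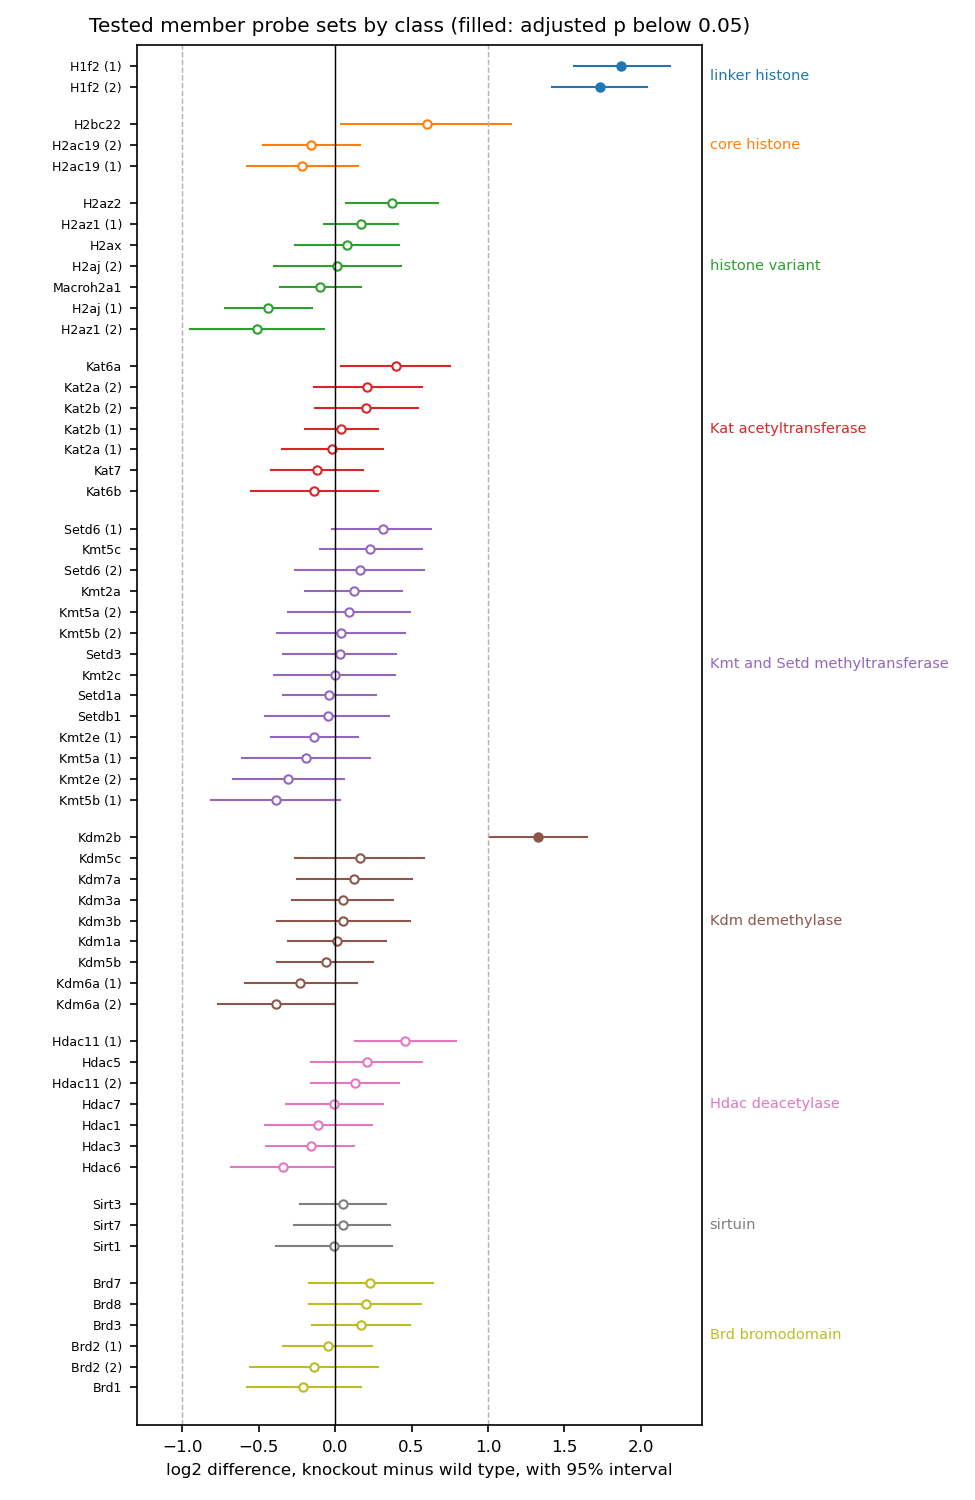
Log2 difference between knockout and wild type for each of the 58 tested member probe sets, grouped by class, with the 95% interval as a line; filled points passed an adjusted p of 0.05, dashed lines mark 2-fold, and (1) and (2) number the brighter and dimmer probe set of a gene. H1f2 and Kdm2b lie to the right of all others, with intervals wholly beyond the dashed line. The H2bc22 interval is the only one to cross a dashed line.

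H1f2 encodes the linker histone H1.2, and is the only H1 gene among the members. Its brighter probe set read 2454, 2119 and 2356 in KO903, KO904 and KO905, and 535, 577 and 762 in WT4, WT5 and WT6. The lowest knockout value was thus far above the highest wild-type value. The means were 2309.8 ± 173 and 625 ± 121 (SD, n = 3 each), a 3.66-fold rise (log2 1.87 ± 0.14 SE, limma adjusted p = 6.04e-05). The dimmer probe set read 678, 617 and 777 in the knockout and 187, 186 and 218 in wild type. Its rise was 3.31-fold (log2 1.73 ± 0.14 SE, limma adjusted p = 8.23e-05), with a 95% interval of 1.42 to 2.04 that overlaps the 1.56 to 2.19 of the first. By unadjusted p these probe sets ranked 8 and 11 among the 10620 tested. Both were called without any 1 of the 6 samples and under every other setting tried, with log2 differences of 1.77 to 2.02 and 1.53 to 1.80.

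**Figure D2:**
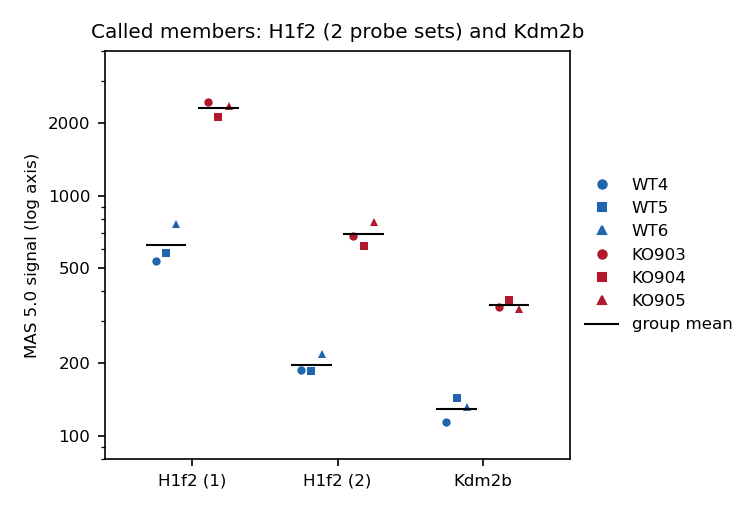
MAS 5.0 signals (log axis) of the 3 called member probe sets in each sample, wild type in blue and knockout in red, with the group mean as a line. For H1f2 (1, the brighter, and 2, the dimmer probe set) and Kdm2b, every knockout sample lies above every wild-type sample.

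The RefSeq promoter table (GRCm38.p6) held 43 of the 51 member genes, and the 250 bases before a start site were searched on both strands. The searched letters were AAACACA, the H1 box found in promoters of H1 genes; CCAAT, common to histone promoters; and TGCGCNC or TGCACNC, the core of the metal response element bound by the transcription factor MTF1. The upstream sequence of H1f2 is shown because it is the histone gene that rose. Those of the core histone genes H2bc22 and H2ac19, which were not called, are given for comparison, together with those of the other called gene, Kdm2b, at 2 of its 4 listed start sites, which lie far apart. The probe set does not tell which start site of Kdm2b was used. Each is written 5' to 3' on the gene's strand, with the searched letters in capitals, and no match overlapped another.
H1f2, chr13:23738557-23738806, strand +: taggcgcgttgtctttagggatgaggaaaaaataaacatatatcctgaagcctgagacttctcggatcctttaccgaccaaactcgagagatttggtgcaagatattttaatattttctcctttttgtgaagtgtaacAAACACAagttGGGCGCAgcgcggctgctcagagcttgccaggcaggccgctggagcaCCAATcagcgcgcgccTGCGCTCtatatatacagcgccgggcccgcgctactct
H2bc22, chr13:21787238-21787487, strand +: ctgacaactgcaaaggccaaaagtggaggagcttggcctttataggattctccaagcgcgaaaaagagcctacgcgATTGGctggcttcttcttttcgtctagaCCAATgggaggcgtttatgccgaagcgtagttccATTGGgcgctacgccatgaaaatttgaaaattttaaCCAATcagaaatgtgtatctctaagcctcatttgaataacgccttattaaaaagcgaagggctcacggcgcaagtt
H2ac19, chr3:96240375-96240624, strand -: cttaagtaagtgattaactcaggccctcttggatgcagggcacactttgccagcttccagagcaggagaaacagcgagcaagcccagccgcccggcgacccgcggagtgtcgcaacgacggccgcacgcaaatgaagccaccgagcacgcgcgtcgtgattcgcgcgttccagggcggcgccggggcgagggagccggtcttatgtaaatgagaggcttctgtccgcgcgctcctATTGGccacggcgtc
Kdm2b, outer start site, chr5:122989100-122989349, strand -: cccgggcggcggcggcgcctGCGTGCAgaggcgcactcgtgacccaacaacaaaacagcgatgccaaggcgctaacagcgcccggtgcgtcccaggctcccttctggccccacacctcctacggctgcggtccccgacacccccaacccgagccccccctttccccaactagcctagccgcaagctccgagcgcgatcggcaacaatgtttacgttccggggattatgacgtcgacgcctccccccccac
Kdm2b, inner start site, chr5:122900368-122900617, strand -: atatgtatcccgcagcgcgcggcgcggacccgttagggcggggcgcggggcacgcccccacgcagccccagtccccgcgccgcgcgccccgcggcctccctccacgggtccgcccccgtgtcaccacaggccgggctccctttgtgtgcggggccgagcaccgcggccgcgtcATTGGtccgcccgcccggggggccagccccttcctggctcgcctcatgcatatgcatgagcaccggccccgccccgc

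In H1f2 the H1 box began 112 bases and CCAAT 54 bases before the start site, and the metal response element letters began 101 and 38 bases before it. Among all 32536 distinct windows of that length, 6.25% held the H1 box, 33.8% CCAAT and 21.5% the metal response element letters. Of the 43 member genes, 3 held the H1 box, 23 CCAAT and 19 the metal response element letters in at least 1 listed window; genes with several windows have more chances to hold one. H2bc22 held CCAAT 4 times, H2ac19 held it once, and neither held the other letters. Such matches describe the sequence and show no binding.

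H1f2 lies in a histone gene cluster on mouse chromosome 13. Of the 3 nearest tested genes on each side of it in the RefSeq gene order, up to 25 protein-coding genes away, 0 of 6 were called in limma (smallest adjusted p = 0.0795), with log2 differences from -0.26 to 0.41. These were Hfe, Abt1, Zfp322a, Slc17a2, Slc17a3 and Slc17a1. None is a histone gene, so the count does not cover the histone genes of the cluster. For Kdm2b, on chromosome 5, 0 of 6 such neighbours were called (smallest adjusted p = 0.13), with log2 differences from -0.42 to 0.29.

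None of the 10 tested probe sets for 7 core histone and variant genes passed in limma, and 4 had an unadjusted p under 0.05. Only 3 of the 10, for 2 genes, were of core histones. A probe set that lists only H4 genes is not among them; it was called and is described below. The median log2 difference over the 7 genes was 0.08, with values from -0.44 to 0.60. Its sign changed without WT6 (-0.01) and with the mean over a gene's probe sets (-0.10). Whether H1f2 differed from these genes in its change was not tested.

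H2bc22 encodes a replication-type H2B. It read 432, 435 and 301 in KO903, KO904 and KO905, against 171, 387 and 231 in WT4, WT5 and WT6. The wild-type sample WT5 stood above KO905, so the groups overlapped. The log2 difference was 0.60, with a 95% interval of 0.04 to 1.15 (limma adjusted p = 0.243), and without WT5 it was 0.90 and called (adjusted p = 0.031). Over all alternatives its adjusted p ran from 0.031 to 0.541.

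H2ac19, a replication-type H2A gene, read 1954, 1746 and 1595 in the knockout and 1531, 2365 and 2373 in wild type on its brighter probe set. WT4 was lowest and WT5 and WT6 highest, with the knockout between them. Its probe sets gave log2 differences of -0.22 and -0.16, neither called. H2bc22 and 1 of the H2ac19 probe sets carry the Affymetrix suffix for probes shared with related sequences, and replication-type histone genes are near-identical copies, so these values cannot be assigned to 1 gene with certainty.

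The annotation lists several symbols, at least 1 of them a member symbol, for 13 further probe sets, which the rule leaves out. Of the 12 that were tested, 1 was called, against 4.14% of all tested probe sets. It lists 13 symbols, all of histone H4 genes, and read 363, 345 and 336 in the knockout against 179.7, 202 and 144 in wild type. It was higher in every knockout sample than in any wild-type sample (log2 0.94 ± 0.15 SE, limma adjusted p = 0.00734), and which H4 gene it measured is not known. The same probe set was called under all 14 alternatives, alone in 13 of them and with 2 others without WT5. With all samples those 2, which list 3 and 11 symbols, had log2 differences of 0.38 and 0.41 (limma adjusted p = 0.076 and 0.124). Every knockout value of both lay above every wild-type value. The other tested probe sets with several symbols ran from -0.22 to 0.23. The remaining probe set, below the minimum signal (mean 78.2), also lists 13 symbols, the first of an H4 gene. It read 72.7, 97.2 and 91 in the knockout against 76.6, 79.4 and 52.5 in wild type, so its groups overlapped.

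None of the 7 tested variant probe sets was called, and their log2 differences ran from -0.51 to 0.37. H2aj, an H2A variant gene, read 429, 461 and 539.7 in the knockout and 629, 636 and 682 in wild type on its brighter probe set. All knockout values were lower, but the log2 difference of -0.44 ± 0.13 (SE) missed the threshold (limma adjusted p = 0.0879). Its dimmer probe set averaged 117 in both groups (log2 0.01). H2az2 encodes a form of H2A.Z, the variant found at promoters. It read 972, 1186 and 925 against 788, 874 and 705, with no overlap and a log2 difference of 0.37 ± 0.14 (SE; limma adjusted p = 0.172).

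H2az1, the other H2A.Z gene, gave opposite signs on its 2 probe sets (log2 0.17 and -0.51, adjusted p in limma 0.462 and 0.211). It was singled out for that after its values were seen. The probe set at -0.51 carries the same suffix for probes shared with related sequences as that of H2bc22. Macroh2a1, a variant with a macro domain that is found in repressed chromatin, read 997 to 1253 in the knockout and 1111 to 1214 in wild type (log2 -0.10). H2ax, the variant that is phosphorylated at DNA breaks, read 247 to 297 and 219 to 295 (log2 0.08). The groups overlapped for both.

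**Figure D3:**
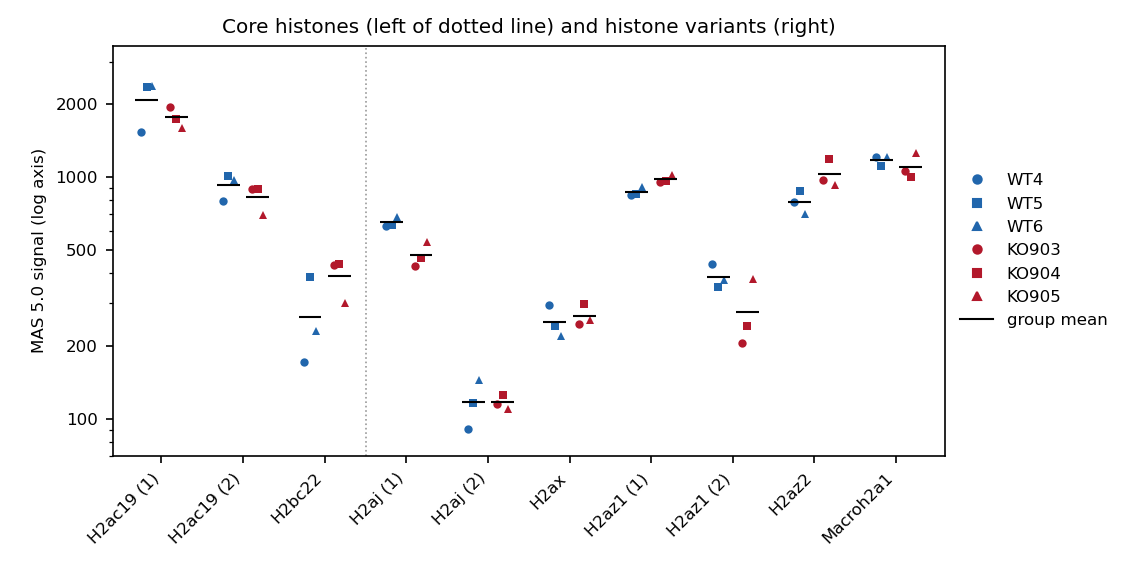
MAS 5.0 signals (log axis) of the tested core histone and histone variant probe sets in each sample, wild type in blue and knockout in red, with the group mean as a line; (1) and (2) number the brighter and dimmer probe set of a gene. The groups do not overlap for the brighter H2aj probe set (lower in the knockout), the brighter H2az1 probe set and H2az2 (both higher), and the wild-type samples of H2bc22 spread from 171 to 387.

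Among the demethylases Kdm2b alone was called, out of 9 tested probe sets for 8 genes, and 1 other had an unadjusted p under 0.05. Kdm2b removes methyl groups from histone H3 and carries a zinc finger that binds unmethylated CpG islands, to which it brings a Polycomb repressive complex. Its probe set read 345, 367 and 336 in KO903, KO904 and KO905, and 114, 143 and 132 in WT4, WT5 and WT6. The groups were well apart, with means of 349 ± 16.1 and 129.6 ± 14.7 (SD, n = 3 each). The rise was 2.51-fold (log2 1.33 ± 0.15 SE, 95% interval 1.01 to 1.65, limma adjusted p = 0.000713). It was called under every alternative, with log2 differences from 1.10 (pseudocount of 64) to 1.43 and adjusted p up to 0.00671. This gene was read from 1 probe set, so no second one checks it.

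Kdm6a, which removes methyl groups from a lysine of histone H3 that Polycomb methylates, read 123, 155 and 170.0 in the knockout against 232, 186 and 184 in wild type on its dimmer probe set. All knockout values were lower, but neither probe set was called (log2 -0.39 and -0.23, limma adjusted p = 0.263 and 0.53). Kdm5c, a demethylase of active promoter marks, read 159 to 269 in the knockout and 163 to 189.5 in wild type (log2 0.16). Kdm3b, of the JmjC demethylase family, read 417 to 462 and 288 to 515 (log2 0.05), with WT4 the lowest. The median log2 difference of the 8 genes was 0.05.

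No methyltransferase was called in limma among 14 probe sets for 10 genes, and none had an unadjusted p under 0.05. The differences ran from -0.39 to 0.31 on the log2 scale, with a median of -0.02 over the genes, 4 of them above 0. Kmt5b and Kmt5c, which add methyl groups to a lysine of histone H4, had log2 differences of -0.39 ± 0.19 and 0.23 ± 0.15 (SE), and a second Kmt5b probe set 0.04. Kmt5b read 349.8, 223 and 214 in the knockout and 336, 298 and 393 in wild type on its brighter probe set, with KO903 inside the wild-type range. Setd6, which methylates proteins other than histones too, gave 0.31 ± 0.15 (SE) and 0.16 on its probe sets. Setd1a, a methyltransferase of active promoters, and Setd3, an actin methyltransferase, gave -0.04 and 0.03.

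The Kat acetyltransferases gave no call in limma among 7 probe sets for 5 genes, with 1 at an unadjusted p under 0.05. That one was Kat6a, a MYST-family acetyltransferase. It read 542, 679.7 and 536 in the knockout and 369, 421 and 543 in wild type, where WT6 reached the knockout range (log2 0.40 ± 0.16 SE, adjusted p = 0.231). Kat2b, a coactivator also known as PCAF, read 2020.4 to 2237 and 1953 to 2298 on its brighter probe set, a log2 difference of 0.04 with a 95% interval of -0.20 to 0.28. Kat6b and Kat7, of the same MYST family as Kat6a, gave -0.14 and -0.12. The class median was -0.02, or 0.10 with the mean over a gene's probe sets.

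Of the deacetylases, 7 probe sets for 6 genes were tested, limma called none, and 1 had an unadjusted p under 0.05. Hdac11, the only member of its deacetylase class, read 751, 674 and 582 in the knockout and 479, 408 and 559 in wild type on its brighter probe set. All knockout values were higher (log2 0.46 ± 0.15 SE, adjusted p = 0.122), while its other probe set gave 0.13 with overlapping groups. Hdac6, a largely cytoplasmic enzyme that acts on tubulin, read 319.9, 235 and 262 against 359, 304 and 379 (log2 -0.34 ± 0.16 SE, adjusted p = 0.282). Hdac3, the catalytic subunit of the nuclear receptor co-repressor complexes, gave -0.16, with readings of 529 to 649.6 and 591 to 692.

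The sirtuins, which use NAD as co-substrate, showed the narrowest range of the classes with more than 1 gene, from -0.01 to 0.05 on the log2 scale. Only 3 probe sets gave this range, fewer than in the other enzyme classes, and a range tends to widen with more members. Sirt3, the main mitochondrial deacetylase, read 738, 917 and 937 in the knockout and 869.8, 812 and 807 in wild type. Its log2 difference of 0.05 had a 95% interval of -0.23 to 0.33. Sirt1 and Sirt7, which act mostly in the nucleus, had intervals of -0.39 to 0.37 and -0.27 to 0.36. Limma called none of the 3 probe sets, and none had an unadjusted p under 0.05.

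The bromodomain genes likewise gave no limma call among 6 probe sets for 5 genes, with none at an unadjusted p under 0.05 and a median of 0.17. Brd7, a subunit of a chromatin remodelling complex, read 274, 189 and 241 against 179.5, 171 and 242 (log2 0.23 ± 0.18 SE). Brd8, of an acetyltransferase complex, gave 0.20 on its 1 tested probe set. Brd1, a scaffold of acetyltransferase complexes, gave -0.21 and the BET protein gene Brd2 gave -0.05 and -0.14. Their groups overlapped in each case.

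**Figure D4:**
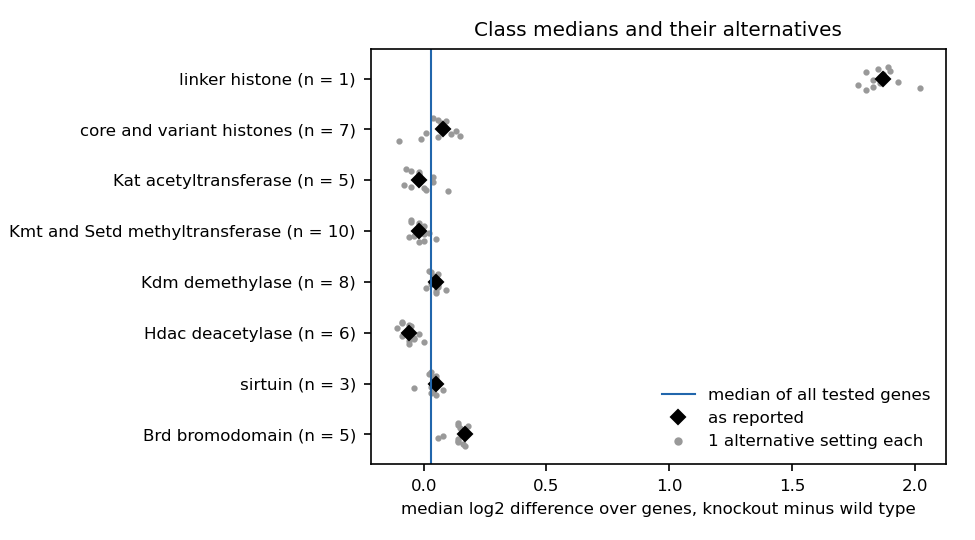
Median log2 difference over the tested genes of each class (diamonds), with the value under each alternative setting as a grey point and the median of all tested genes as a blue line; n counts genes. The linker histone class is the single gene H1f2, at 1.87, and the other medians as reported lie between -0.06 and 0.17.

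Below the minimum signal were 9 member probe sets, among them the only ones for H2aw, H3c7, Hdac2, Kdm4c, Kdm8 and Setd4. Their mean signals were 32.8 to 76.2, and with no filter on signal limma called 0 of the 9. Of 13 genes with 2 tested probe sets, 8 had the same sign on both and 5 had opposite signs, the latter H2aj, H2az1, Kat2a, Kmt5a and Kmt5b.

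Other genes that handle histones and their marks were read from lists of known partners. The counts of calls in these lists stand beside 141 genes called higher and 119 called lower among all 6604 tested genes. In histone mRNA processing, 1 of 7 tested genes was called, higher. That gene was Eri1, an exonuclease that trims and degrades histone mRNA. It read 258, 252 and 242 in the knockout and 157, 153 and 162 in wild type, with the groups apart (log2 0.62 ± 0.14 SE, limma adjusted p = 0.0329). The call ended without any 1 of the 6 samples (adjusted p up to 0.118). Slbp, which binds the histone mRNA stem-loop, gave a log2 difference of -0.41 that was not called. Among histone chaperones, 1 of 15 tested genes was called, the acidic chaperone gene Anp32a. It read 939, 859 and 752 against 457, 590.3 and 566 (log2 0.65 ± 0.14 SE, limma adjusted p = 0.0288). This call ended without KO903, KO904, WT4 or WT6 (adjusted p up to 0.116), and its other probe sets gave 0.47 and 0.33, neither called.

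Limma called no gene among 15 tested Polycomb genes (0 at an unadjusted p under 0.05; median log2 0.01), 16 of deacetylase co-repressor complexes (1; 0.13) and 10 COMPASS subunits, which support Kmt2 and Setd1 enzymes (0; -0.06). The same held for 12 acetyltransferases and coactivators outside the Kat symbols (2; 0.05), 7 methyltransferases outside the Kmt and Setd symbols (2; -0.10), 6 demethylases outside the Kdm symbols (2; -0.02) and 6 genes of DNA methylation and chromatin architecture (3; -0.08). Prmt1, an arginine methyltransferase, came closest of the methyltransferases. It read 160.0, 167 and 171 in the knockout and 252, 271 and 232 in wild type, with no overlap (log2 -0.55 ± 0.14 SE, adjusted p = 0.0549). Cbx5, which encodes heterochromatin protein HP1alpha, read 176, 190.2 and 182 against 247, 264 and 295 (log2 -0.51 ± 0.14 SE, adjusted p = 0.0698). Prmt1 and Cbx5 were singled out after their values were seen.

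Of 5 tested genes that supply NAD, 1 was called lower and 1 higher. Nampt, of the NAD salvage pathway, read 335, 458 and 434 against 974, 805 and 848 on its brighter probe set (log2 -1.08 ± 0.15 SE, limma adjusted p = 0.00267), while its other probe set gave -0.20 (adjusted p = 0.604). Qprt, which makes the NAD precursor from quinolinate, rose (log2 0.43 ± 0.10 SE, adjusted p = 0.0436). The Qprt call ended with median centring, without the intensity trend, and without any 1 sample except WT5 (adjusted p up to 0.14), and its other probe set gave 0.18.

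Markers of dividing and of other liver cells were read beside these results, and their part in the results was not tested. Of 20 proliferation markers 7 were tested and limma called none (2 at an unadjusted p under 0.05). Of these 7, 6 lay above 0, with a median log2 difference of 0.26 and a range from -0.71 (Rrm2) to 0.68 (Top2a). Top2a averaged 134 in the knockout and 78.4 in wild type, so it reached the minimum of 100 only through the knockout. The 10 markers on the array summed to 2140 to 2639.6 in the knockout and 2079 to 2203 in wild type. All 6 tested of 7 Kupffer and macrophage markers lay above 0 (median 0.32, 0 called, 2 at an unadjusted p under 0.05), with summed signals of 4699.7 to 6417 and 3469 to 4846. All 5 tested of 6 endothelial markers lay above 0 too (median 0.15, 0 called, 2 at an unadjusted p under 0.05), with sums of 2275 to 2755 and 1893 to 2283. Of 7 stellate and fibroblast markers 3 were tested and 0 called (0 at an unadjusted p under 0.05), with Col1a1 and Lrat under a signal of 100. Of 8 lymphocyte markers 1 was tested and not called (log2 0.23). Of 5 erythroid markers only Alas2 had a probe set of its own in the table, and it rose from 377 to 418 in wild type to 714 to 894 in the knockout (a 2-fold rise, limma adjusted p = 0.00183). Of 6 cholangiocyte markers 0 were in the table under 1 symbol. No marker measured was at 0.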

How the data were processed

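Total liver RNA of 6 samples was measured on Affymetrix arrays, 1 per sample. The deposited intensity values are MAS 5.0 signals on a linear scale, scaled per array to a target average of 350, per the labels; MAS5 is also the tool in the submitters' processing notes. The number of arrays limits the precision. The table held 11811 probe sets. Removing 33 controls and 1158 probe sets whose mean signal was under 100 left 10620. Gene names came from the platform annotation (10776 with 1 symbol, 418 with several, 584 with none); Entrez identifiers of all 67 member probe sets were found in RefSeq (GRCm38.p6) and 0 symbols changed.

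Groups came from the sample titles. Knockout was compared with wild type on log2(signal + 16) with limma 3.58.1 in R 4.3.3 (lmFit, eBayes with intensity trend). Tests were two-sided, and p-values were adjusted by Benjamini-Hochberg over the 10620; the threshold was 0.05. An exact permutation test of 3 against 3 cannot go below 0.1. For medians the probe set with the highest mean signal stood for its gene. The fit was tested on simulated data with 200 changed probe sets. It called 13% of changes of log2 0.5 and 68.9% of changes of log2 1, and 3.88% of its calls were unchanged probe sets. Most changes of log2 0.5 were thus not called in that simulation. Figures used Python 3.11.15 with matplotlib 3.10.9.

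Named were Atp7b, every called member, in each class (core histones and variants as 1 class) the 3 genes with the smallest p and the 2 brightest, with their other probe sets, and called genes of related lists. H2ax, H2az1, Slbp, Prmt1, Cbx5, Top2a and Rrm2 were named outside this rule. Members and lists were chosen with earlier results of these data known. Alternatives were quantile normalization, median centring, a pseudocount of 1 or 64, no filter or a minimum of 200, eBayes without trend or robust, leaving out each sample, and the mean over a gene's probe sets.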

Additional observations from a re-analysis of the deposited data

How the results depend on the processing

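The calls of H1f2 (both probe sets) and Kdm2b were kept under all 14 alternatives run on single probe sets, and H2bc22 without WT5 was the only member call added. Of 554 comparisons over the named member probe sets (with H2az1), 553 kept their side of the threshold, with no called value changing sign. Only the probe sets of H1f2 and Kdm2b were called with all samples, so only they could lose a call. Some uncalled values changed sign, such as Kdm3b (log2 -0.20 to 0.20 with 1 sample left out). Leaving out 1 sample moved the count over all probe sets from 440 to between 175 and 475 (higher calls 82 to 242, lower calls 93 to 233); the fits without KO903, KO904, KO905, WT4 and WT6 gave 193, 175, 228, 254 and 272. Class medians moved by more than the spread between samples in few cases. For core and variant histones the median was 0.04 after quantile normalization, -0.10 with the mean over probe sets, and -0.01 to 0.15 with 1 sample left out. For acetyltransferases it was 0.10 with the mean over probe sets. With 1 sample left out it was -0.06 to 0.05 for methyltransferases and 0.06 to 0.16 for bromodomain genes. Beyond the left-out sample or the averaging itself, the cause was not tested. No paired analysis was possible because the groups share no sample number. Where a sample was left out, the 2 remaining samples of its group share the spread estimated over all.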
